A study of Homo sapiens with 21 samples.

Results

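Interferon-stimulated genes and the genes of the immunoproteasome were followed through SYK knockdown in MOLM-14, U937 and HL-60, 3 established lines of human acute myeloid leukaemia. The members were the genes of a list of 50 symbols, each read by the Affymetrix probe set (a group of short probes against 1 transcript) annotated to it, and where a gene had several, by the brightest of them on average. Of the 50, 48 had such a probe set among the 12165 genes tested, and STAT2 and TRIM21 were not analysed here. Of the 48, 32 had a single probe set and 16 had several, and no filter on low values was applied. Members with a mean log2 intensity of 4 or less lay in the dimmest 40% of all genes, which held 15 members, among them IFIT1, OAS1, MX1 and RSAD2. RMA, the method behind the deposited values, compresses fold changes at such levels.

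The 21 arrays (Affymetrix HT U133A) fell into 9 groups. In each line, shSYK_1 and shSYK_2, short hairpin RNAs against the tyrosine kinase SYK, had 2 arrays each, and shLuc, a hairpin against luciferase that has no human target, had 3. Every culture, shLuc included, was infected, kept in puromycin at 1 µg/ml from 48 h on and harvested at day 5 after infection, so none of the groups is an untouched cell. Replicates are labelled as separate transductions of the same line, and the spread behind each p-value is that between such transductions. For HL-60 shSYK_2 replicate 1 the title and treatment labels say shSYK_2 while the source label names shSYK_1. It was kept as shSYK_2, and its upper quartile of intensity was 122.3 against 134.5 to 139.8 on the other arrays. Its values correlated at 0.9939 with HL-60 shSYK_2 replicate 2, and at 0.9871 and 0.9890 with HL-60 shSYK_1 replicates 1 and 2. The first was the lowest correlation between replicates of a group, since all other such pairs had 0.9972 to 0.9981. With the HL-60 shLuc arrays its values correlated at 0.9890 to 0.9893, much as with shSYK_1. These correlations therefore do not settle the label.

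Interferons are secreted proteins that bind receptors on the cell surface. Type I interferons act through the kinases JAK1 and TYK2 and a complex that holds IRF9, which binds the interferon-stimulated response element in the promoters of its target genes. Interferon gamma acts through another promoter element, the gamma-activated site. The target genes encode effectors that block virus replication, the ubiquitin-like protein ISG15 with its conjugation enzymes, sensors of foreign RNA and DNA, and the parts of the immunoproteasome, a form of the proteasome that cuts proteins into peptides for presentation on MHC class I. In myeloid cells several of these genes are also expressed without added interferon.

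The hairpins differ in the stretch of SYK, on chromosome 9, that they target. The 21 bases below were copied from the study's design and are printed because each result is given for each hairpin.
shSYK_1 target: gcagcagaacagacatgtcaa
shSYK_2 target: gcaggccatcatcagtcagaa

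Promoter windows from RefSeq (GRCh38.p14, 250 bases before to 50 bases after the annotated start) were at hand for 40 of the 50 listed genes. The core of the interferon-stimulated response element, searched as 2 runs of TTTC with any 2 bases between them on both strands with overlapping matches allowed, was found in 28 of the 40 windows (70.0%) and in the windows of 4.376% of the 27305 genes in the table. The core of the gamma-activated site, TTCNNNGAA on both strands, was found in 10 of the 40 (25.0%) and in 9.376% of all genes. These counts are properties of the gene list and no result of the knockdown. A match is a string of letters and does not show binding, and a window without one says nothing about the factor. The 4 windows below belong to members that the results turn on, printed in the direction of transcription with the matches in capitals. IFI6 (chr1:27672143-27672442, minus strand) holds 3 matches to the response element core, ISG15 (chr1:1013247-1013546, plus strand) holds 2 overlapping ones and IFIT1 (chr10:89392373-89392672, plus strand) holds 2. OAS1 (chr12:112906712-112907011, plus strand) holds no match to that core and 1 match to the core of the gamma-activated site.
IFI6: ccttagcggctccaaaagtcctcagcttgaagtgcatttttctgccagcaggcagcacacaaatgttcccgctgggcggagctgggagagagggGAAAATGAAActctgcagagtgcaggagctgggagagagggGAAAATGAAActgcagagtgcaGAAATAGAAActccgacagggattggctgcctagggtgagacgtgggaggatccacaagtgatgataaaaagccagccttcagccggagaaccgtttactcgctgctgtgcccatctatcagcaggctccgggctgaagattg
ISG15: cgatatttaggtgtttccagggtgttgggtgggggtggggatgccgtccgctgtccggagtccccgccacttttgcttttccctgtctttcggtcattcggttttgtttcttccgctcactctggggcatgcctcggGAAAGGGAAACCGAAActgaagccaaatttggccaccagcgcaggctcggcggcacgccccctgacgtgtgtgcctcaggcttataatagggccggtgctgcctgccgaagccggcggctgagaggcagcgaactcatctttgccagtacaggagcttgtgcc
IFIT1: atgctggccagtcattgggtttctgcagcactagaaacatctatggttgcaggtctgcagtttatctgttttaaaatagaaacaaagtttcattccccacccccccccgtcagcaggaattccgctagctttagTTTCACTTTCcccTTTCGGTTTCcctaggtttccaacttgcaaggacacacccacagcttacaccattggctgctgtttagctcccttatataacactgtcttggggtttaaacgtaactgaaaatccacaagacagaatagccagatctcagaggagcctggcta
OAS1: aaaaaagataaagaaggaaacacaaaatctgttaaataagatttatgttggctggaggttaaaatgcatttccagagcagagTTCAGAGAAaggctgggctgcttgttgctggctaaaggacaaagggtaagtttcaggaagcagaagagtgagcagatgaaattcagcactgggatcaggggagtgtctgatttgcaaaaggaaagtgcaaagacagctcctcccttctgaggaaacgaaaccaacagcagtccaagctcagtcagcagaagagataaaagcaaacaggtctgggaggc

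SYK itself was lower in every knockdown group. In MOLM-14 its log2 intensity was 6.16 and 6.16 with shSYK_1 and 5.62 and 5.35 with shSYK_2, against 8.49, 8.42 and 8.44 with shLuc. U937 cells had 7.02 and 6.97 with shSYK_1 and 6.57 and 6.55 with shSYK_2, against 8.66, 8.70 and 8.70 with shLuc. The HL-60 values were 7.04 and 7.0 with shSYK_1 and 6.66 and 6.90 with shSYK_2, against 8.91, 9.05 and 9.0 with shLuc. Averaged over the lines, SYK fell by 1.98 with shSYK_1 and by 2.43 with shSYK_2 on the log2 scale. Of 9 measured myeloid identity genes, 5 rose and 2 fell in the average over hairpins and lines (17.1% and 17.0% of all genes). Among them ITGAM (0.97), CD14 (0.84) and TYROBP (0.72) were higher and MPO (−0.49) was lower. CD14 was called in HL-60 alone, at 2.94 with shSYK_1 and 1.84 with shSYK_2. ITGAM rose by 1.12, 2.21 and 1.86 with shSYK_1 in MOLM-14, U937 and HL-60. Its shSYK_2 changes in the same lines were −0.18 (not called), 0.34 and 0.46. TYROBP rose in 5 of the 6 comparisons, shSYK_2 in MOLM-14 excepted, and MPO fell with both hairpins in MOLM-14 and HL-60 and was not called in U937. FCER1G was lower on the SYK hairpin arrays of MOLM-14, at 4.17 to 4.43 against 4.89 to 4.99 with shLuc. In U937 and HL-60 its SYK hairpin arrays lay above every shLuc array. CEBPA lay below every shLuc array in U937 and HL-60 and overlapped them in MOLM-14. The summed intensity of the 9 genes ran from 2113.6 to 9580.0 (median 2606.4) on the 12 SYK hairpin arrays. On the 9 shLuc arrays it ran from 1994.7 to 10206.7 (median 2210.2). The defining markers of B cells (4 genes, mean log2 1.92 to 3.78) and erythroid cells (4 genes, 2.92 to 3.74) stayed at low levels with none called in that average. Of 8 T and NK cell markers, CD2 rose by 0.25, NKG7 fell by 0.16 and GNLY fell by 0.21. CD3D, CD3E and CD3G were not called and had mean levels of 2.74 to 3.89. NKG7 was not low, with a mean of 8.33 and values of 10.09 to 10.44 on the U937 arrays. Of 8 epithelial and stromal markers only CDH1 was called, at 0.14. The part of the shift in myeloid genes in the results below was not tested.

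Knockdown of SYK was followed by higher levels of many members in MOLM-14 and HL-60, and in U937 with shSYK_1, with fewer calls there for shSYK_2. In MOLM-14, 16 of the 48 members rose and 2 fell with shSYK_1, where 13.0% of all genes rose and 12.5% fell (25.5% called). With shSYK_2 in MOLM-14, 17 rose and 3 fell, where 8.47% of all genes rose and 8.12% fell (16.6% called). In U937, 12 rose and 5 fell with shSYK_1 (8.53% and 8.37% of all genes, 16.9% called), and 3 rose and 5 fell with shSYK_2 (8.32% and 7.92% of all genes, 16.2% called). The members that rose with shSYK_2 in U937 were 6.2% of the 48. In place of the 8 called there, array weights gave 17 (10 rose and 7 fell) and log2 of the value plus 16 gave 13 (7 rose and 6 fell). The share of all genes was not taken under these settings. In HL-60, 18 rose and none fell with shSYK_1 (12.5% and 11.8% of all genes, 24.3% called), and 12 rose and 4 fell with shSYK_2 (10.0% and 11.4% of all genes, 21.5% called). A gene is said to rise or fall where its limma p, adjusted by Benjamini-Hochberg over all 12165 genes, was below 0.05. The members were chosen with earlier results of these data known, so the shares of all genes beside them are a description and no test. In bulk RNA a change in the number of expressing cells and a change per cell cannot be told apart.

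The median log2 change of the members was 0.20 with shSYK_1 and 0.24 with shSYK_2 in MOLM-14, 0.09 and −0.04 in U937, and 0.19 and 0.12 in HL-60, while the median over all genes lay between −0.01 and 0.02 in each of these 6 comparisons. Averaged over the lines, 24 members rose and 5 fell with shSYK_1 (18.2% and 17.4% of all genes, 35.6% called), and 15 rose and 4 fell with shSYK_2 (15.6% and 14.7% of all genes, 30.3% called). In the average over hairpins and lines, 22 members rose and 3 fell (17.1% and 17.0% of all genes, 34.1% called), with a median of 0.15. The share of all genes was taken in the main fit alone. Member counts under other settings therefore do not show whether a loss of calls is particular to members. Without HL-60 shSYK_2 replicate 1 the members called with shSYK_2 in HL-60 numbered 7 (6 rose and 1 fell) instead of 16, and they numbered 6 with array weights, 10 with the HL-60 arrays alone and 4 with that array counted as shSYK_1. Without MOLM-14 shSYK_2 replicate 2 those called with shSYK_2 in MOLM-14 numbered 10 (7 rose and 3 fell) instead of 20. Without U937 shSYK_2 replicate 1 or 2, those called with shSYK_2 in U937 numbered 3 or 4 instead of 8. Of the 97 member calls in the 6 comparisons, 52 held without each of the 21 arrays in turn, 12 of them with shSYK_1 in each line, and with shSYK_2 9 in MOLM-14, 2 in U937 (IFI16 and IFITM1) and 5 in HL-60 (IFI16, IFI30, PSMB8, PSMB9 and XAF1). Where the call of a member named below was lost without 1 array, it is given beside the call without the array that raised its p most.

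**Figure D1:**
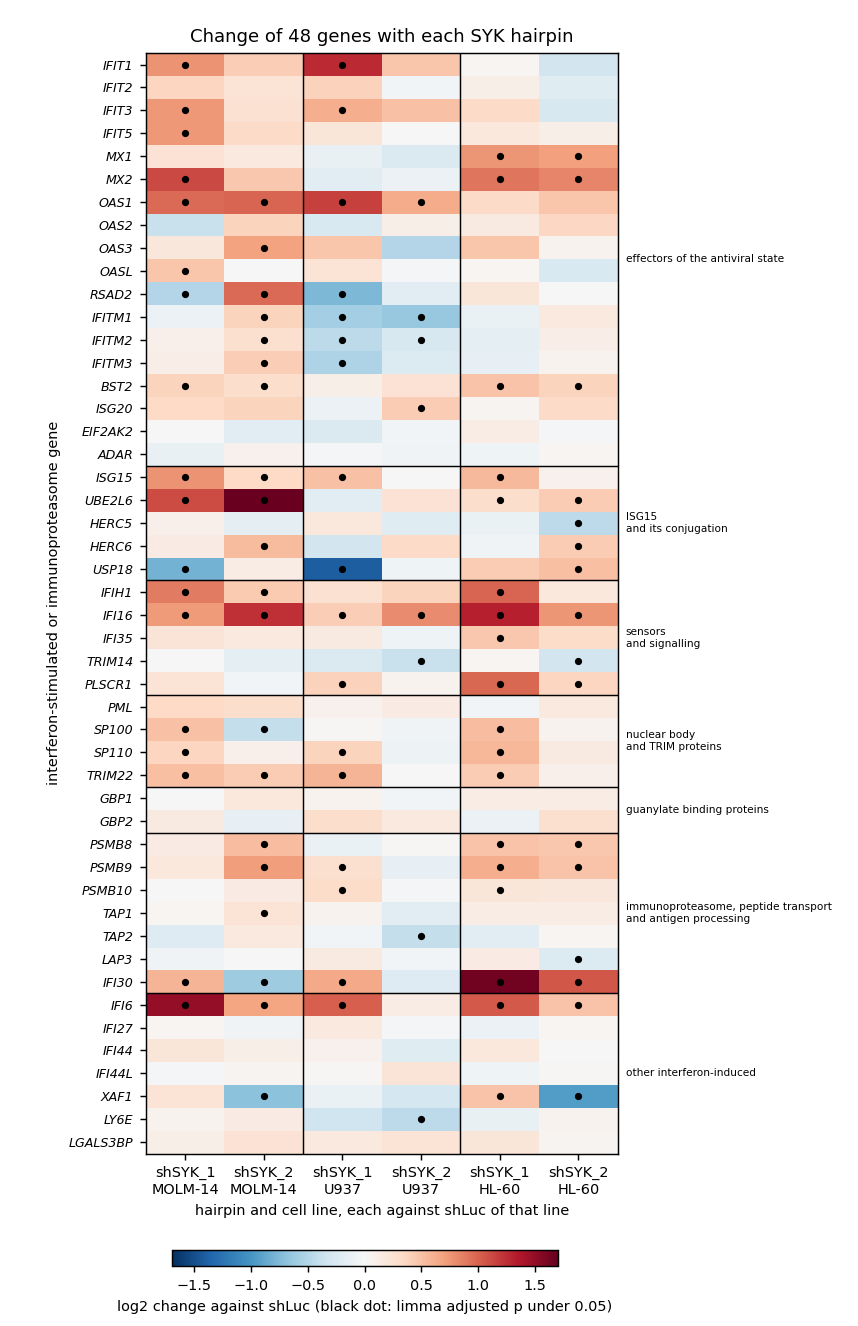
Log2 change against the shLuc arrays of the same line for 48 members (rows, grouped by role) with each hairpin in each line (columns). Colour gives the change, red for higher and blue for lower with the SYK hairpin, and a black dot marks a limma adjusted p under 0.05. IFI16 is marked in all 6 columns and IFI6 in 5, while USP18, RSAD2, IFI30 and XAF1 run in opposite directions between columns.

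Few members were called in most of the 6 comparisons. IFI16 rose in all 6 and IFI6 in 5, so that 2 members rose in at least 5 comparisons, as did 1.75% of all genes. In 4 of the 6, BST2, IFI30, ISG15, OAS1, PSMB9, TRIM22 and UBE2L6 rose, and the share of all genes that did so was not taken. A set of 8 members (IFI30, IFITM1, IFITM2, IFITM3, RSAD2, SP100, USP18 and XAF1) rose in at least 1 comparison and fell in at least 1 other, as did 8.38% of all genes. For 11 members (ADAR, EIF2AK2, GBP1, GBP2, IFI27, IFI44, IFI44L, IFIT2, LGALS3BP, OAS2 and PML) no comparison was called, the state of 45.9% of all genes, and 7 of these 11 lay in the dimmest 40%. HERC5, LAP3, LY6E, TAP2 and TRIM14 fell in at least 1 comparison and rose in none, a pattern whose share of all genes was not taken either. The comparisons of the 2 hairpins in a line share the same 3 shLuc arrays.

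IFI6, a small interferon-induced membrane protein that guards against virus replication and cell death, changed most with shSYK_1. In MOLM-14 its log2 intensity was 6.39 and 6.40 with shSYK_1 and 5.35 and 5.78 with shSYK_2, against 4.93, 4.90 and 4.86 with shLuc. The U937 values were 8.89 and 8.98 with shSYK_1 and 8.17 and 7.92 with shSYK_2, against 7.97, 7.95 and 7.83 with shLuc. On the HL-60 arrays it read 6.17 and 6.31 with shSYK_1 and 5.86 and 5.50 with shSYK_2, against 5.12, 5.43 and 5.04 with shLuc. All shSYK_1 arrays lay above the shLuc arrays of their line, and the shSYK_2 arrays lay above them in MOLM-14 and HL-60 but not in U937. The log2 change with shSYK_1 was 1.5 ± 0.133 (SE) in MOLM-14, a fold of 2.82 (limma adjusted p = 4.30e-07), 1.02 in U937 and 1.04 in HL-60. With shSYK_2 it was 0.67 in MOLM-14 (adjusted p = 0.00217), 0.13 in U937 (adjusted p = 0.627) and 0.49 in HL-60 (adjusted p = 0.0158). The shSYK_2 call in HL-60 was lost without HL-60 shSYK_2 replicate 1 (0.31, adjusted p = 0.257) and without HL-60 shLuc replicate 3 (0.41, adjusted p = 0.0621), and that in MOLM-14 without MOLM-14 shSYK_2 replicate 2 (0.45, adjusted p = 0.0753).

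IFI16, a sensor of DNA in the nucleus and cytosol, was the member called in all 6 comparisons. Its log2 intensity in MOLM-14 was 8.38 and 8.18 with shSYK_1 and 8.76 and 8.81 with shSYK_2, against 7.48, 7.67 and 7.50 with shLuc. On the U937 arrays it read 9.62 and 10.02 with shSYK_1 and 10.15 and 10.25 with shSYK_2, against 9.42, 9.27 and 9.51 with shLuc. Values in HL-60 were 7.08 and 7.36 with shSYK_1 and 6.64 and 6.65 with shSYK_2, against 5.84, 6.02 and 5.83 with shLuc. No array with a SYK hairpin overlapped the shLuc arrays of its line. IFI16 rose by 0.73, 0.42 and 1.33 with shSYK_1 in MOLM-14, U937 and HL-60. With shSYK_2 it rose by 1.24, 0.80 and 0.75 in the same lines. The average over hairpins and lines was 0.88 ± 0.0568 (SE), a fold of 1.84 (limma adjusted p = 5.74e-09). Its other 2 probe sets gave 1.07 and 0.38 in that average, both called. The call with shSYK_1 in U937 was lost without U937 shSYK_1 replicate 2 (0.21, adjusted p = 0.34) and without U937 shLuc replicate 2 (0.35, adjusted p = 0.0818).

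IFIH1, PLSCR1 and IFI35 each rose in at least 1 comparison, and TRIM14 fell in 2. IFIH1, a sensor of long double-stranded RNA, rose by 0.89 with shSYK_1 in MOLM-14, 0.99 with shSYK_1 in HL-60 and 0.44 with shSYK_2 in MOLM-14, and its change was 0.27 (adjusted p = 0.199) with shSYK_1 in U937. PLSCR1, a phospholipid scramblase that interferon induces, rose by 0.97 with shSYK_1 and 0.36 with shSYK_2 in HL-60 and by 0.39 with shSYK_1 in U937. IFI35, an interferon-induced leucine zipper protein, rose by 0.45 with shSYK_1 in HL-60, where it was 0.31 with shSYK_2 (adjusted p = 0.0616) and the hairpin difference was −0.14 (adjusted p = 0.462). TRIM14, an adaptor of antiviral signalling, fell by 0.38 in U937 and 0.31 in HL-60 with shSYK_2. IFI35 was 0.42 without HL-60 shSYK_1 replicate 1 (adjusted p = 0.0642), and TRIM14 was −0.35 without U937 shSYK_2 replicate 2 (adjusted p = 0.0907) and −0.11 without HL-60 shSYK_2 replicate 1 (adjusted p = 0.49). The IFIH1 call with shSYK_2 in MOLM-14 was lost in 4 of the settings that leave out 1 array, among them without MOLM-14 shSYK_2 replicate 2 (0.34, adjusted p = 0.253). The PLSCR1 call in U937 was lost without U937 shSYK_1 replicate 1 (0.30, adjusted p = 0.109), and that with shSYK_2 in HL-60 without HL-60 shSYK_2 replicate 2 (0.28, adjusted p = 0.0764).

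Among 18 effectors of the antiviral state, 7 rose and 1 fell with shSYK_1 and 7 rose and none fell with shSYK_2 in MOLM-14. In U937, 3 rose and 4 fell with shSYK_1 and 2 rose and 2 fell with shSYK_2. In HL-60, 3 rose and none fell with either hairpin, where 12.5% of all genes rose with shSYK_1 and 10.0% with shSYK_2. Of all genes, 13.0% and 8.47% rose with shSYK_1 and shSYK_2 in MOLM-14, and 8.53% and 8.32% in U937, so that the shares in HL-60, and with shSYK_2 in U937, lay near those of all genes. OAS1, which makes the oligoadenylates that switch on RNase L, rose with both hairpins in MOLM-14 and U937. Its log2 intensity in MOLM-14 was 3.97 and 4.33 with shSYK_1 and 4.19 and 4.15 with shSYK_2, against 3.13, 3.06 and 3.37 with shLuc. Values in U937 were 4.23 and 3.92 with shSYK_1 and 3.70 and 3.38 with shSYK_2, against 2.68, 2.83 and 3.21 with shLuc. In HL-60 it was 3.01 and 3.37 with shSYK_1 and 3.37 and 3.31 with shSYK_2, against 3.22, 2.83 and 2.55 with shLuc, where the groups overlapped for shSYK_1. The changes were 0.96 and 0.99 in MOLM-14, 1.17 and 0.64 in U937 and 0.33 and 0.48 in HL-60, the last not called with either hairpin (limma adjusted p = 0.253 and 0.0869). The U937 call with shSYK_2 was lost without U937 shSYK_2 replicate 1 (0.48, adjusted p = 0.279) or replicate 2 (0.79, adjusted p = 0.052) and without U937 shLuc replicate 1 (0.52, adjusted p = 0.116) or replicate 2 (0.60, adjusted p = 0.0859).

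IFIT1, which binds viral RNA with unmethylated caps, rose with shSYK_1 in MOLM-14 and U937. In MOLM-14 its log2 intensity was 3.67 and 3.73 with shSYK_1 and 3.41 and 3.31 with shSYK_2, against 2.83, 2.78 and 3.21 with shLuc. In U937 it was 4.55 and 5.14 with shSYK_1 and 4.06 and 4.03 with shSYK_2, against 3.61, 3.40 and 3.72 with shLuc. HL-60 cells had 3.10 and 2.68 with shSYK_1 and 2.52 and 2.57 with shSYK_2, against 2.85, 2.83 and 2.89 with shLuc. Every SYK hairpin array exceeded the shLuc arrays in MOLM-14 and U937, and in HL-60 the shSYK_2 arrays lay below them. IFIT1 rose by 0.76 in MOLM-14 (limma adjusted p = 0.00170) and by 1.27 in U937 (adjusted p = 2.82e-05) with shSYK_1. Its change with shSYK_2 was 0.42, 0.47 and −0.31 in MOLM-14, U937 and HL-60, none called. IFIT3, a partner of IFIT1, rose by 0.74 and 0.62 with shSYK_1 in MOLM-14 and U937, IFIT5 rose by 0.74 with shSYK_1 in MOLM-14, and IFIT2 was called in none of the 6 comparisons. IFIT3 in MOLM-14 was 0.47 without MOLM-14 shSYK_1 replicate 1 (adjusted p = 0.207), its U937 call did not hold in 13 of the fits that leave out 1 array (0.54 to 0.69), and IFIT5 was 0.78 and 0.71 without MOLM-14 shSYK_1 replicates 1 and 2 (adjusted p = 0.0552 and 0.0794).

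MX2, a dynamin-like GTPase that restricts retroviruses, was high in U937 shLuc cells and low in the other lines. In MOLM-14 its log2 intensity was 5.00 and 5.22 with shSYK_1 and 4.74 and 4.16 with shSYK_2, against 3.65, 4.63 and 3.71 with shLuc. U937 cells had 9.18 and 9.16 with shSYK_1 and 9.19 and 9.31 with shSYK_2, against 9.34, 9.30 and 9.40 with shLuc. The HL-60 values were 5.32 and 5.41 with shSYK_1 and 5.24 and 5.32 with shSYK_2, against 4.48, 4.53 and 4.35 with shLuc. The SYK hairpin and shLuc arrays did not overlap in HL-60, where MX2 rose by 0.92 with shSYK_1 and 0.83 with shSYK_2. MX2 rose by 1.12 with shSYK_1 in MOLM-14, where the 3 shLuc arrays spread over almost 1 log2 unit, and its change in U937 was −0.17 and −0.10, not called. Without HL-60 shSYK_2 replicate 1 the shSYK_2 change in HL-60 was 0.87 with an adjusted p of 0.0602. MX1, the related GTPase against influenza viruses, was called only in HL-60, at 0.75 with shSYK_1 (adjusted p = 0.0276) and 0.70 with shSYK_2 (adjusted p = 0.0451). Both MX1 calls lay near the threshold and were lost without single arrays, the first at 0.44 (adjusted p = 0.339) without HL-60 shSYK_1 replicate 2 and the second at 0.44 (adjusted p = 0.405) without HL-60 shSYK_2 replicate 1.

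RSAD2, the radical SAM enzyme viperin that makes a chain-terminating nucleotide, moved in opposite directions with the hairpins in MOLM-14. There its log2 intensity was 3.25 and 3.05 with shSYK_1 and 4.63 and 4.60 with shSYK_2, against 3.96, 3.33 and 3.66 with shLuc. The U937 values were 3.02 and 2.80 with shSYK_1 and 3.41 and 3.56 with shSYK_2, against 3.68, 3.49 and 3.87 with shLuc. On the HL-60 arrays it read 2.99 and 3.02 with shSYK_1 and 2.76 and 2.80 with shSYK_2, against 3.03, 2.73 and 2.62 with shLuc. In MOLM-14 the shSYK_2 arrays lay above and the shSYK_1 arrays below all 3 shLuc arrays, and in U937 the shSYK_1 arrays lay below them. RSAD2 fell by 0.50 with shSYK_1 in MOLM-14 (adjusted p = 0.0249) and by 0.77 in U937. With shSYK_2 it rose by 0.97 in MOLM-14 (adjusted p = 3.50e-04). The MOLM-14 fall was not called without MOLM-14 shSYK_1 replicate 2 (−0.40, adjusted p = 0.194) or without MOLM-14 shLuc replicate 1 (−0.34, adjusted p = 0.111) or replicate 3 (−0.49, adjusted p = 0.0549).

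The 3 measured IFITM genes encode membrane proteins that block virus entry, and their near-identical transcripts may share probes, so the assignment of each probe set is uncertain. IFITM1 had a log2 intensity in MOLM-14 of 5.02 and 5.10 with shSYK_1 and 5.68 and 5.40 with shSYK_2, against 5.14, 5.32 and 5.03 with shLuc. On the U937 arrays it read 6.87 and 6.83 with shSYK_1 and 6.74 and 6.83 with shSYK_2, against 7.45, 7.35 and 7.48 with shLuc. Values in HL-60 were 2.70 and 3.06 with shSYK_1 and 3.14 and 3.20 with shSYK_2, against 3.0, 2.91 and 3.08 with shLuc, a level near the bottom of the range of the array. All 4 U937 knockdown arrays lay below the 3 shLuc arrays. IFITM1 fell by 0.58 with shSYK_1 and 0.64 with shSYK_2 in U937, and IFITM2 fell by 0.44 and 0.27. IFITM3 fell by 0.52 with shSYK_1 there, and its change with shSYK_2 was −0.24 (adjusted p = 0.215). In MOLM-14 all 3 rose with shSYK_2, IFITM1 by 0.38, IFITM2 by 0.27 and IFITM3 by 0.42. The IFITM1 rise was lost without MOLM-14 shSYK_2 replicate 1 (0.24, adjusted p = 0.309), without MOLM-14 shLuc replicate 1 (0.37, adjusted p = 0.0593) and without MOLM-14 shLuc replicate 3 (0.31, adjusted p = 0.0857). IFITM2 was 0.23 (adjusted p = 0.141) and IFITM3 0.42 (adjusted p = 0.119) without MOLM-14 shSYK_2 replicate 2, and in U937 IFITM2 was −0.25 without U937 shSYK_2 replicate 2 (adjusted p = 0.112) and IFITM3 −0.39 without U937 shSYK_1 replicate 2 (adjusted p = 0.102).

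Of the remaining effectors, BST2, the tetherin that holds budding virus at the membrane, rose with both hairpins in MOLM-14 (0.38 and 0.29) and HL-60 (0.49 and 0.38), and its changes in U937 were 0.10 and 0.24, not called. Its HL-60 change with shSYK_2 was 0.31 without HL-60 shSYK_2 replicate 1 (adjusted p = 0.0885). In MOLM-14 its change was 0.26 with shSYK_1 without MOLM-14 shSYK_1 replicate 2 (adjusted p = 0.0975) and 0.23 with shSYK_2 without MOLM-14 shSYK_2 replicate 2 (adjusted p = 0.265). OAS3, a further oligoadenylate synthase, rose with shSYK_2 in MOLM-14 (0.69), OASL, a relative without synthase activity, rose with shSYK_1 in MOLM-14 (0.47), and the exonuclease ISG20 rose with shSYK_2 in U937 (0.43). Without single arrays these became 0.43 for OAS3 (without MOLM-14 shSYK_2 replicate 2, adjusted p = 0.329), 0.31 for OASL (without MOLM-14 shSYK_1 replicate 2, adjusted p = 0.258) and 0.31 for ISG20 (without U937 shSYK_2 replicate 1, adjusted p = 0.349). The kinase EIF2AK2, which halts translation when it binds double-stranded RNA, and the RNA-editing enzyme ADAR were called in none of the 6 comparisons. Their changes lay between −0.25 and 0.13 for EIF2AK2 and between −0.12 and 0.07 for ADAR.

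ISG15 and its conjugation enzymes divided by gene. ISG15, the ubiquitin-like modifier, had a log2 intensity in MOLM-14 of 7.43 and 7.40 with shSYK_1 and 6.89 and 7.11 with shSYK_2, against 6.69, 6.55 and 6.71 with shLuc. Values in U937 were 7.87 and 7.78 with shSYK_1 and 7.38 and 7.27 with shSYK_2, against 7.34, 7.39 and 7.27 with shLuc. In HL-60 it was 7.17 and 7.16 with shSYK_1 and 6.80 and 6.56 with shSYK_2, against 6.58, 6.68 and 6.57 with shLuc. The shSYK_1 arrays lay above shLuc in each line, and the shSYK_2 arrays did so in MOLM-14. ISG15 rose by 0.76, 0.49 and 0.55 with shSYK_1 in MOLM-14, U937 and HL-60. With shSYK_2 it rose by 0.34 in MOLM-14, a call lost without MOLM-14 shSYK_2 replicate 2 (0.23, adjusted p = 0.192).

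UBE2L6, the enzyme that passes ISG15 on to its targets, changed most in MOLM-14. There its log2 intensity was 6.07 and 6.06 with shSYK_1 and 6.63 and 6.64 with shSYK_2, against 4.72, 5.05 and 5.11 with shLuc. In U937 it was 9.05 and 9.17 with shSYK_1 and 9.51 and 9.56 with shSYK_2, against 9.30, 9.29 and 9.29 with shLuc. HL-60 cells had 7.36 and 7.46 with shSYK_1 and 7.63 and 7.44 with shSYK_2, against 7.20, 7.0 and 7.13 with shLuc. UBE2L6 rose by 1.11 ± 0.0984 (SE) with shSYK_1 and by 1.68 ± 0.0984 with shSYK_2 in MOLM-14, folds of 2.15 and 3.19 (limma adjusted p = 4.21e-07 and 1.60e-08). The SYK hairpin arrays lay above shLuc in MOLM-14 and HL-60, and in U937 the shSYK_1 arrays lay below it and the shSYK_2 arrays above it. The HL-60 rises were 0.30 and 0.43. The HL-60 call with shSYK_1 was lost after centring each array on its median (0.22, adjusted p = 0.188) and without either HL-60 shSYK_1 replicate (0.35 and 0.25 without replicates 1 and 2, adjusted p = 0.0721 and 0.219), HL-60 shLuc replicate 2 (0.24, adjusted p = 0.126) or replicate 3 (0.31, adjusted p = 0.0629), and that with shSYK_2 without HL-60 shSYK_2 replicate 1 (0.33, adjusted p = 0.0977).

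USP18, which removes ISG15 from proteins and also damps the type I receptor, fell with shSYK_1 in 2 lines. In MOLM-14 its log2 intensity was 4.24 and 4.60 with shSYK_1 and 5.45 and 5.27 with shSYK_2, against 5.49, 5.25 and 4.96 with shLuc. U937 cells had 4.30 and 4.04 with shSYK_1 and 5.41 and 5.59 with shSYK_2, against 5.33, 5.81 and 5.56 with shLuc. The HL-60 values were 3.88 and 4.10 with shSYK_1 and 4.23 and 3.90 with shSYK_2, against 3.74, 3.55 and 3.37 with shLuc. The shSYK_1 arrays lay below every shLuc array in MOLM-14 and U937 and above every one in HL-60, while the shSYK_2 arrays overlapped shLuc in MOLM-14 and U937. With shSYK_1, USP18 fell by 0.81 in MOLM-14 (adjusted p = 0.00214) and by 1.40 in U937 (adjusted p = 2.53e-05). The fall in MOLM-14 was −0.63 without MOLM-14 shSYK_1 replicate 1 (adjusted p = 0.0528). In HL-60 the change was 0.43 with shSYK_1 (adjusted p = 0.0814) and 0.51 with shSYK_2 (adjusted p = 0.0462), the second near the threshold and 0.35 without HL-60 shSYK_2 replicate 1 (adjusted p = 0.37).

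HERC6, an ISG15 ligase in mouse, was higher with shSYK_2. Its log2 intensity in MOLM-14 was 3.65 and 3.77 with shSYK_1 and 3.99 and 4.23 with shSYK_2, against 3.38, 3.73 and 3.61 with shLuc. The U937 values were 3.52 and 3.57 with shSYK_1 and 4.05 and 4.30 with shSYK_2, against 3.82, 3.91 and 3.83 with shLuc. On the HL-60 arrays it read 3.75 and 3.95 with shSYK_1 and 4.27 and 4.41 with shSYK_2, against 3.87, 3.84 and 4.01 with shLuc. The shSYK_2 arrays lay above shLuc in all 3 lines. HERC6 rose by 0.54 in MOLM-14 and 0.43 in HL-60 with shSYK_2, and its change in U937 was 0.32 (adjusted p = 0.0554). Without MOLM-14 shSYK_2 replicate 2 the MOLM-14 change was 0.42 (adjusted p = 0.0622), and without HL-60 shSYK_2 replicate 2 the HL-60 change was 0.37 (adjusted p = 0.0579). HERC5, the main human ISG15 ligase, fell by 0.45 with shSYK_2 in HL-60, a change of −0.23 without HL-60 shSYK_2 replicate 1 (adjusted p = 0.152).

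**Figure D2:**
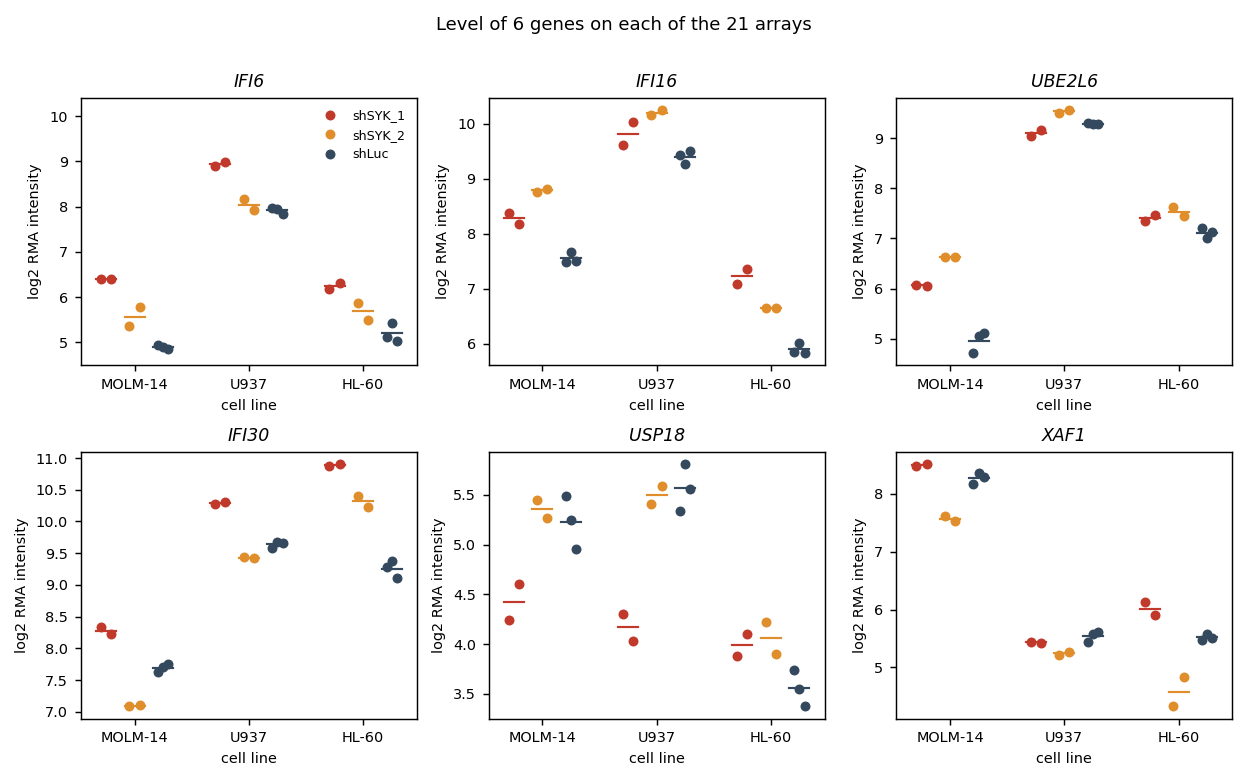
Log2 RMA intensity of IFI6, IFI16, UBE2L6, IFI30, USP18 and XAF1 on each of the 21 arrays (points), by line and hairpin, with the group mean as a bar. IFI16 lies above shLuc with both hairpins in each line, USP18 lies below it with shSYK_1 in MOLM-14 and U937, and XAF1 lies below it with shSYK_2 in MOLM-14 and HL-60.

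Of the nuclear body and TRIM proteins, TRIM22 and SP110 rose with shSYK_1 in all 3 lines. TRIM22, a ubiquitin ligase that represses retroviral transcription, rose by 0.51, 0.58 and 0.43 with shSYK_1 in MOLM-14, U937 and HL-60. With shSYK_2 it rose by 0.43 in MOLM-14. Its change was 0.33 in HL-60 without HL-60 shSYK_1 replicate 1 (adjusted p = 0.0757) and 0.39 with shSYK_2 in MOLM-14 without MOLM-14 shSYK_2 replicate 2 (adjusted p = 0.0764). SP110, a nuclear body protein, rose by 0.36, 0.37 and 0.56 with shSYK_1, while its shSYK_2 changes ran from −0.08 to 0.15 and were not called. SP100, a founding component of nuclear bodies, rose by 0.50 in MOLM-14 and 0.53 in HL-60 with shSYK_1 and fell by 0.40 in MOLM-14 with shSYK_2. Its probe sets gave different values in the average over hairpins and lines, 0.11 for the brightest and 0.40 for the next. PML, the scaffold of these bodies, was called in no comparison, with changes from −0.04 to 0.34. GBP1 and GBP2, interferon-induced GTPases that attack intracellular microbes, were called in none either.

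XAF1, an interferon-induced protein that promotes cell death, differed between the hairpins, with a mean over lines of −0.85 for shSYK_2 minus shSYK_1. Its log2 intensity in MOLM-14 was 8.49 and 8.52 with shSYK_1 and 7.61 and 7.53 with shSYK_2, against 8.17, 8.36 and 8.29 with shLuc. On the U937 arrays it read 5.44 and 5.42 with shSYK_1 and 5.22 and 5.26 with shSYK_2, against 5.43, 5.58 and 5.61 with shLuc. Values in HL-60 were 6.12 and 5.90 with shSYK_1 and 4.33 and 4.84 with shSYK_2, against 5.48, 5.59 and 5.51 with shLuc. The shSYK_2 arrays lay below every shLuc array in all 3 lines, and the shSYK_1 arrays lay above them in MOLM-14 and HL-60. XAF1 fell by 0.70 in MOLM-14 (limma adjusted p = 3.91e-04) and by 0.94 in HL-60 (adjusted p = 2.14e-05) with shSYK_2, and rose by 0.49 in HL-60 with shSYK_1. Without HL-60 shSYK_2 replicate 1 the HL-60 fall was −0.69 (adjusted p = 2.98e-04), and without HL-60 shSYK_1 replicate 1 the HL-60 rise was 0.38 (adjusted p = 0.0822). With HL-60 shSYK_2 replicate 1 counted as shSYK_1, the shSYK_1 change in HL-60 was −0.0744 (adjusted p = 0.899). LY6E, a membrane protein that interferes with virus entry, fell by 0.45 with shSYK_2 in U937, a change of −0.36 without U937 shSYK_2 replicate 1 (adjusted p = 0.174). IFI27, IFI44, IFI44L and LGALS3BP, all in the dimmest 40%, were called in none of the 6 comparisons.

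The immunoproteasome takes up 3 interferon-induced catalytic subunits, PSMB8, PSMB9 and PSMB10, in place of the constitutive PSMB5, PSMB6 and PSMB7. The 7 members of this group with peptide transport and antigen processing held 4 that rose and none that fell in the average over hairpins and lines. In that average 17.1% of all genes rose and 17.0% fell. PSMB8 had a log2 intensity in MOLM-14 of 9.51 and 9.62 with shSYK_1 and 9.94 and 9.95 with shSYK_2, against 9.45, 9.43 and 9.40 with shLuc. Values in U937 were 9.65 and 9.64 with shSYK_1 and 9.77 and 9.78 with shSYK_2, against 9.75, 9.80 and 9.72 with shLuc. In HL-60 it was 9.10 and 9.11 with shSYK_1 and 9.06 and 9.11 with shSYK_2, against 8.66, 8.68 and 8.54 with shLuc. All SYK hairpin arrays of MOLM-14 and HL-60 exceeded the shLuc arrays, and those of U937 did not. PSMB8 rose by 0.48 and 0.46 in HL-60 with shSYK_1 and shSYK_2 and by 0.52 in MOLM-14 with shSYK_2 (limma adjusted p = 1.68e-05).

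PSMB9 in MOLM-14 measured 8.29 and 8.34 with shSYK_1 and 8.85 and 8.84 with shSYK_2, against 8.16, 8.12 and 8.12 with shLuc, in log2 intensity. In U937 it was 8.32 and 8.36 with shSYK_1 and 7.93 and 7.93 with shSYK_2, against 8.04, 8.06 and 8.11 with shLuc. HL-60 cells had 7.54 and 7.48 with shSYK_1 and 7.26 and 7.48 with shSYK_2, against 6.80, 6.94 and 6.93 with shLuc. The shSYK_2 arrays lay above shLuc in MOLM-14 and HL-60 and below it in U937. PSMB9 rose by 0.71 in MOLM-14 with shSYK_2, by 0.27 in U937 with shSYK_1, and by 0.62 and 0.48 in HL-60 with shSYK_1 and shSYK_2. The U937 call was lost without U937 shSYK_1 replicate 2 (0.25, adjusted p = 0.0862). PSMB10 rose by 0.31 in U937 and by 0.20 in HL-60 with shSYK_1. The HL-60 value was 0.12 after centring each array on its median (adjusted p = 0.257) and was not called without any single HL-60 shLuc or shSYK_1 array (0.18 to 0.22).

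The calls of the 3 constitutive partners were falls, except that of PSMB7 in MOLM-14. PSMB5 fell by 0.55 in MOLM-14 and 0.50 in HL-60 with shSYK_1 and was not called with shSYK_2. PSMB6 fell by 0.24 in U937 and 0.30 in HL-60 with shSYK_2. PSMB7 rose by 0.25 in MOLM-14 with shSYK_1, and fell by 0.25 in U937 and 0.31 in HL-60 with shSYK_2. Of the 14 constitutive core genes, none rose and 3 fell in the average over hairpins and lines (17.1% and 17.0% of all genes). PSMA2 fell by 0.23, PSMB5 by 0.14 and PSMA3 by 0.11. Of 7 activator and assembly genes, the assembly factor POMP rose by 0.08 and the assembly chaperone PSMG1 and the activator PSME3 fell by 0.17 and 0.10. The POMP and PSME3 calls had adjusted p-values of 0.0481 and 0.0480 and were lost in most settings that leave out 1 array. PSME1 and PSME2, the interferon-induced activator subunits, were not called in that average (0.05 and −0.01).

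**Figure D3:**
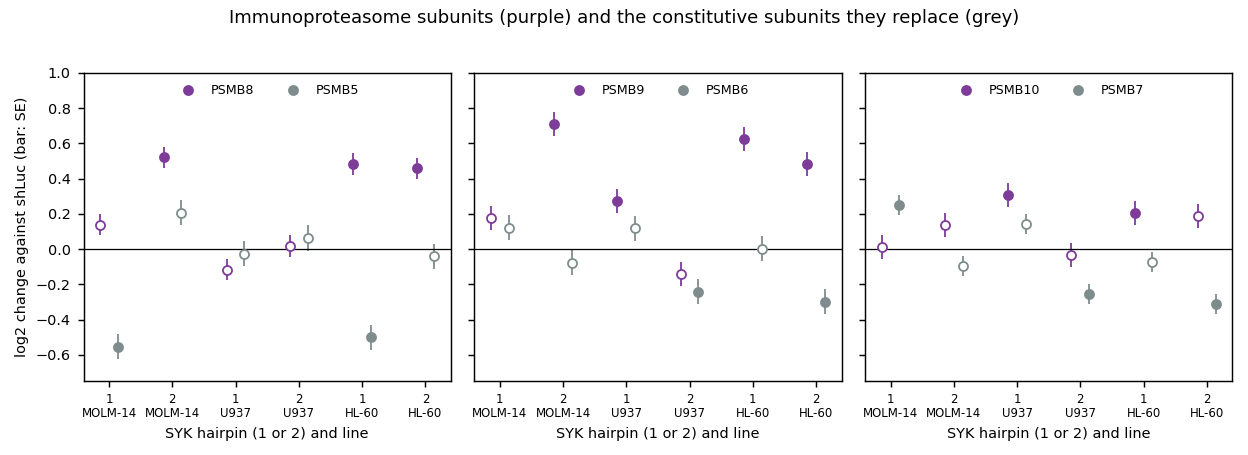
Log2 change against shLuc (vertical axis, bars are limma SE) of PSMB8, PSMB9 and PSMB10 (purple) and of the constitutive subunits PSMB5, PSMB6 and PSMB7 (grey) with hairpin 1 or 2 in each line. Filled points have a limma adjusted p under 0.05 and open points do not. PSMB8 and PSMB9 are filled with both hairpins in HL-60 and with hairpin 2 in MOLM-14, and the one filled constitutive point above 0 is PSMB7 with hairpin 1 in MOLM-14.

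Among genes that handle peptides downstream, CALR and ERAP2 fell, and TAP1 and TAP2 were each called in 1 of the 6 comparisons. TAP1 and TAP2 form the transporter that carries peptides into the endoplasmic reticulum. TAP1 rose with shSYK_2 in MOLM-14 (0.24), a call that was lost in 6 of the settings that leave out 1 array (0.21 without MOLM-14 shSYK_2 replicate 1, adjusted p = 0.228), and TAP2 fell by 0.41 with shSYK_2 in U937, a change of −0.37 without U937 shSYK_2 replicate 1 (adjusted p = 0.0947). LAP3, an aminopeptidase, fell by 0.23 with shSYK_2 in HL-60, a change of −0.11 without HL-60 shSYK_2 replicate 1 (adjusted p = 0.473). Of 13 measured genes of MHC class I and peptide loading, 6 rose and 3 fell in the average over hairpins and lines. In that average 17.1% of all genes rose and 17.0% fell. HLA-C rose by 0.14, and the chaperones CALR and CANX and the trimming peptidase ERAP2 fell by 0.36, 0.18 and 0.53. ERAP2 fell in MOLM-14, by 0.73 with shSYK_1 and 1.02 with shSYK_2, and by 1.47 with shSYK_2 in HL-60. Probe sets of HLA genes can bind transcripts of several class I genes, and HLA-C was 0.05 with the mean of its probe sets (adjusted p = 0.182).

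IFI30, a lysosomal thiol reductase that unfolds antigens for MHC class II, spanned the widest set of responses. Its log2 intensity in MOLM-14 was 8.34 and 8.23 with shSYK_1 and 7.08 and 7.11 with shSYK_2, against 7.63, 7.70 and 7.76 with shLuc. U937 cells had 10.27 and 10.31 with shSYK_1 and 9.43 and 9.42 with shSYK_2, against 9.58, 9.68 and 9.67 with shLuc. The HL-60 values were 10.88 and 10.91 with shSYK_1 and 10.41 and 10.23 with shSYK_2, against 9.29, 9.37 and 9.11 with shLuc. No hairpin group overlapped the shLuc arrays of its line, and the shSYK_2 arrays lay below shLuc in MOLM-14 and U937 and above it in HL-60. IFI30 rose by 0.58, 0.65 and 1.64 with shSYK_1 in MOLM-14, U937 and HL-60, the last a fold of 3.12 (limma adjusted p = 2.91e-10). With shSYK_2 it fell by 0.60 in MOLM-14 (adjusted p = 5.82e-05) and was −0.22 in U937 (adjusted p = 0.0793). In HL-60 it rose by 1.06 with shSYK_2, and by 0.97 without HL-60 shSYK_2 replicate 1.

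The 2 hairpins were then compared directly, which asks whether members respond to the choice of hairpin. Averaged over lines, 10 members were higher and 15 lower with shSYK_2 than with shSYK_1, where 17.3% and 18.4% of all genes were (35.7% called). USP18 (0.78 ± 0.109, SE), RSAD2 (0.60 ± 0.0976) and HERC6 (0.51 ± 0.0688) had the greatest differences among those higher with shSYK_2. IFI30 (−0.88 ± 0.0501), XAF1 (−0.85 ± 0.0718) and IFI6 (−0.76 ± 0.0844) had the greatest among those lower with shSYK_2, with limma adjusted p = 9.55e-10, 9.52e-08 and 2.04e-06. ISG15 (−0.47), IFIT1 (−0.49), IFIT3 (−0.40), IFIH1 (−0.38), SP110 (−0.38), TRIM22 (−0.33) and PLSCR1 (−0.41) were also lower with shSYK_2. IFIT3 was −0.31 without MOLM-14 shSYK_1 replicate 1 (adjusted p = 0.0813). IFI16 (0.10, adjusted p = 0.316), OAS1 (−0.12), BST2 (−0.02) and PSMB9 (−0.01) were not called, which does not show that the hairpins act alike on them. By line, IFI16 was higher with shSYK_2 than with shSYK_1 in MOLM-14 (0.51, adjusted p = 0.00692) and U937 (0.38, adjusted p = 0.0429) and lower in HL-60 (−0.58, adjusted p = 0.00403). The IFI16 difference was 0.41 in MOLM-14 without MOLM-14 shSYK_1 replicate 2 (adjusted p = 0.0815), 0.18 in U937 without U937 shSYK_1 replicate 1 (adjusted p = 0.475) and −0.44 in HL-60 without HL-60 shSYK_1 replicate 2 (adjusted p = 0.0583). With the mean of its probe sets it was 0.25 in MOLM-14 (adjusted p = 0.188) and 0.17 in U937 (adjusted p = 0.431). PSMB9 was higher with shSYK_2 in MOLM-14 (0.54, adjusted p = 3.99e-05) and lower in U937 (−0.41, adjusted p = 5.98e-04). SYK itself was lower with shSYK_2 by 0.45 on the log2 scale.

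By line, 10 members were higher and 10 lower with shSYK_2 than with shSYK_1 in MOLM-14 (13.2% and 12.8% of all genes, 25.9% called). In U937, 6 were higher and 12 lower (11.9% and 11.1% of all genes, 23.0% called), and in HL-60, 2 were higher and 13 lower (9.59% and 12.6% of all genes, 22.2% called). In MOLM-14 the count was 13 in place of 20 without MOLM-14 shSYK_2 replicate 2. The HL-60 count fell once HL-60 shSYK_2 replicate 1 was moved to shSYK_1. That move leaves 1 array in HL-60 shSYK_2 and also changes the spread that all groups share. Whether the label or the spread lowered the count was not tested.

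**Figure D4:**
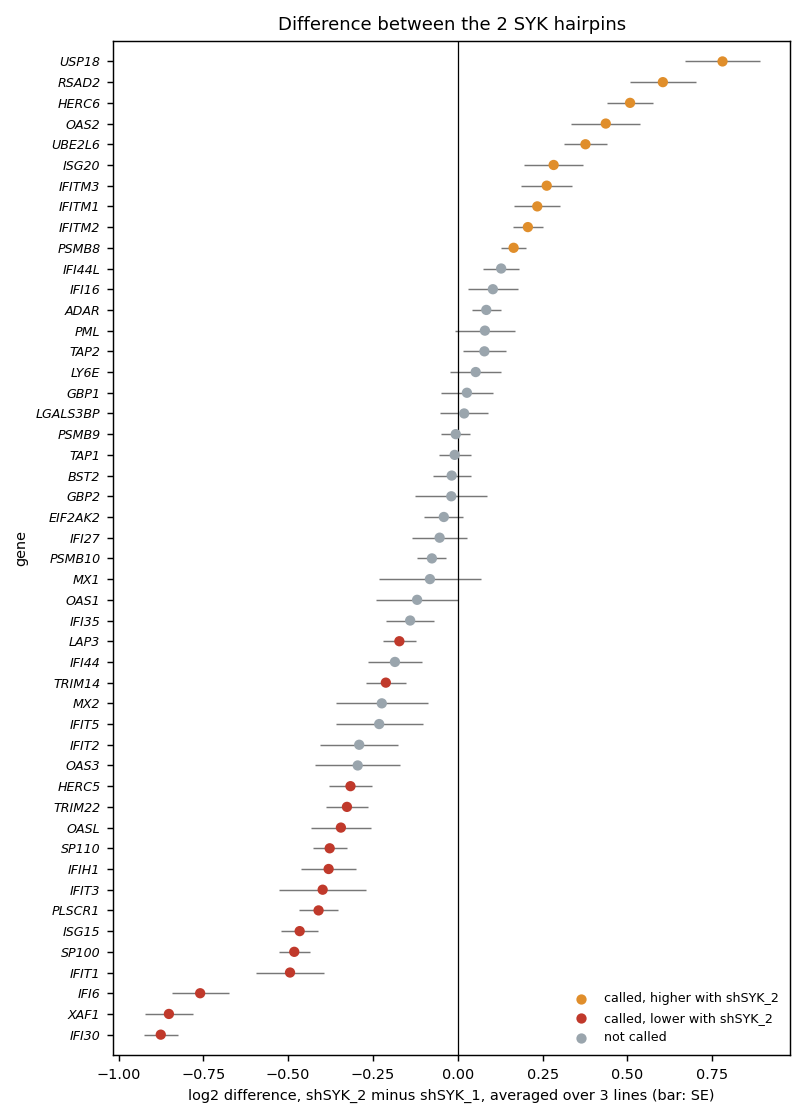
Log2 difference between shSYK_2 and shSYK_1, averaged over MOLM-14, U937 and HL-60 (horizontal axis, bars are limma SE), for 48 members in order of the difference. Orange points are higher and red points lower with shSYK_2 at an adjusted p under 0.05, and grey points are not called. USP18 is at the top at 0.78 and IFI30 at the bottom at −0.88.

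The response to SYK knockdown, taken as the mean of both hairpins against shLuc, was also compared between lines. The MOLM-14 response exceeded the U937 response for 7 members and fell short of it for none (1.76% and 1.94% of all genes, 3.70% called). UBE2L6 led with a difference of 1.36 ± 0.116 (SE, limma adjusted p = 5.63e-06), followed by IFITM1 (0.75), RSAD2 (0.72), IFITM3 (0.64), IFITM2 (0.53), PSMB9 (0.38) and PSMB8 (0.38). The MOLM-14 response exceeded the HL-60 response for 2 members, UBE2L6 (1.03) and IFIT1 (0.73), and fell short of it for 3, IFI30 (−1.36), USP18 (−0.81) and PLSCR1 (−0.57), where 3.88% and 4.60% of all genes did (8.48% called). Without MOLM-14 shLuc replicate 1 these 5 calls became 3. Of the values named here, IFITM3 (0.58, adjusted p = 0.051) and RSAD2 (0.62, adjusted p = 0.112) between MOLM-14 and U937 were not called without U937 shLuc replicate 3, IFIT1 between MOLM-14 and HL-60 was 0.64 without MOLM-14 shLuc replicate 2 (adjusted p = 0.0667), and USP18 there was −0.72 without HL-60 shLuc replicate 3 (adjusted p = 0.0603). The U937 response exceeded the HL-60 response for IFIT1 (1.00) alone and fell short of it for 9 members (2.82% and 4.06% of all genes, 6.88% called), among them USP18 (−1.21), IFI30 (−1.13), MX2 (−1.01), IFITM1 (−0.64), PSMB8 (−0.52) and PSMB9 (−0.49). MX2 there was −0.96 without HL-60 shLuc replicate 3 (adjusted p = 0.059). IFI6 and IFI16 were called in none of the 3 line comparisons, with differences of up to 0.51 for IFI6 (MOLM-14 minus U937, adjusted p = 0.0924) and −0.43 for IFI16 (U937 minus HL-60, adjusted p = 0.0767).

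Members also differed between lines in shLuc cells. MOLM-14 exceeded U937 for 10 members and was below it for 22 (25.7% and 26.4% of all genes, 52.1% called). It exceeded HL-60 for 21 and was below it for 9 (23.0% and 26.4% of all genes, 49.4% called), and U937 exceeded HL-60 for 25 and was below it for 10 (25.8% and 27.0% of all genes, 52.8% called). Of the 48 members, 12 had their highest shLuc mean in MOLM-14 cells, 23 in U937 cells and 13 in HL-60 cells. Centring each array on its median moved the median of all genes by −0.208 for MOLM-14 against HL-60 and by −0.253 for U937 against HL-60. The calls were then 19 higher and 19 lower for MOLM-14 against HL-60, and 22 higher and 18 lower for U937 against HL-60.

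The widest ranges were those of MX2, IFITM1 and UBE2L6. MX2 averaged 4.0 ± 0.551 in MOLM-14, 9.35 ± 0.0495 in U937 cells and 4.45 ± 0.0939 in HL-60 (log2, SD, n = 3 each). MOLM-14 was below U937 by 5.35, and the difference between MOLM-14 and HL-60, −0.45, was not called (limma adjusted p = 0.0600). IFITM1 averaged 5.16 ± 0.144 in MOLM-14, 7.43 ± 0.0671 in U937 cells and 3.0 ± 0.0849 in HL-60, with U937 above HL-60 by 4.43. UBE2L6 averaged 4.96 ± 0.210 in MOLM-14, 9.29 ± 0.00820 in U937 cells and 7.11 ± 0.101 in HL-60. IFI16 had the order U937, MOLM-14, HL-60 with means of 7.55 ± 0.107 in MOLM-14, 9.40 ± 0.120 in U937 cells and 5.90 ± 0.104 in HL-60. TRIM22 (2.38 and 3.02 above U937 and HL-60), XAF1 (2.73 and 2.75) and PLSCR1 (2.33 and 1.19) were highest in MOLM-14. For PSMB9 the difference of MOLM-14 from U937 was not called (0.07 ± 0.0611, SE) and both lines lay above HL-60, by 1.25 and 1.18. TAP1 and SP100 had the narrowest ranges, 0.101 and 0.117.

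**Figure D5:**
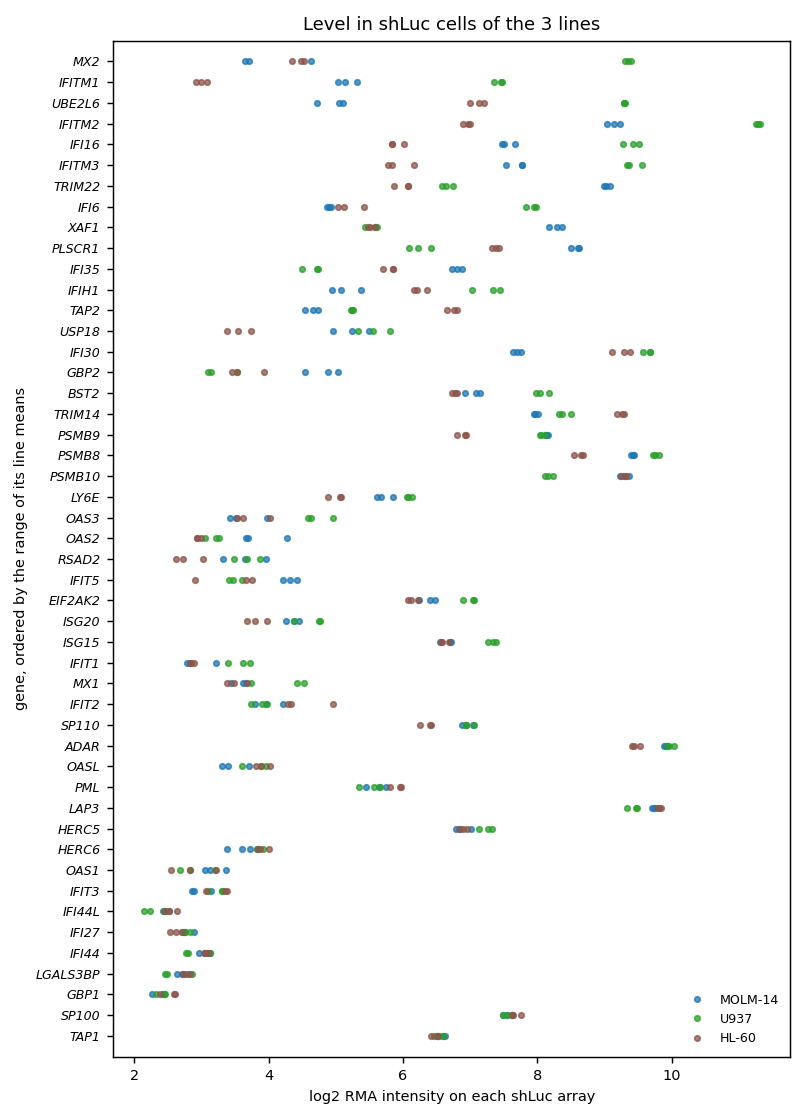
Log2 RMA intensity on each shLuc array (horizontal axis, 3 points a line) for 48 members, ordered from the widest range of line means at the top to the narrowest at the bottom. U937 points lie far to the right for MX2, IFITM1, UBE2L6, IFITM2 and IFI16, and MOLM-14 points for TRIM22, XAF1 and PLSCR1.

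Among genes upstream of the members, the interferons themselves lay at the bottom of the intensity range. The 15 measured interferon genes had mean log2 levels from 2.09 to 3.59. In the average over hairpins and lines none rose and 1 fell, IFNA10 by 0.14, where 17.1% of all genes rose and 17.0% fell. IFNB1 had a log2 intensity in HL-60 of 2.94 and 3.04 with shSYK_1 and 3.59 and 3.22 with shSYK_2, against 2.91, 3.04 and 3.24 with shLuc, and its change with shSYK_2 there was 0.34 (adjusted p = 0.0302). The lower shSYK_2 value lay below the highest shLuc value, and without HL-60 shSYK_2 replicate 1 the change was 0.16 (adjusted p = 0.448). The call was also lost without HL-60 shLuc replicate 1 (0.27, adjusted p = 0.111) or replicate 2 (0.33, adjusted p = 0.0723). In MOLM-14 and U937 IFNB1 was not called, with values from 2.72 to 3.09.

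Of 15 measured receptor, kinase and IRF genes, 7 rose and 2 fell in the average over hairpins and lines (17.1% and 17.0% of all genes). IRF9, a DNA-binding factor of the interferon response, had a log2 intensity in MOLM-14 of 7.16 and 7.40 with shSYK_1 and 6.02 and 6.14 with shSYK_2, against 6.26, 6.07 and 6.21 with shLuc. The U937 values were 6.43 and 6.28 with shSYK_1 and 6.02 and 5.99 with shSYK_2, against 5.19, 5.30 and 5.46 with shLuc. On the HL-60 arrays it read 6.31 and 6.54 with shSYK_1 and 5.59 and 5.85 with shSYK_2, against 5.51, 5.26 and 5.33 with shLuc. IRF9 was above shLuc on every SYK hairpin array of U937 and HL-60 and, in MOLM-14, with shSYK_1. It rose by 1.10, 1.04 and 1.06 with shSYK_1, and with shSYK_2 by 0.69 in U937 and 0.36 in HL-60, while the shSYK_2 change in MOLM-14 was −0.10 (limma adjusted p = 0.628). The HL-60 shSYK_2 call was lost without HL-60 shSYK_2 replicate 2 (0.23, adjusted p = 0.227), without HL-60 shLuc replicate 2 (0.30, adjusted p = 0.107) and without HL-60 shLuc replicate 3 (0.34, adjusted p = 0.0815).

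IFNGR1, the ligand-binding chain of the interferon gamma receptor, rose in all 6 comparisons, by 0.38 to 0.77, and IL10RB, shared by the interferon lambda receptor, rose by 0.43 in their average. IRF8, a myeloid transcription factor, fell in all 6, by 0.26 to 0.77. IFNAR2, a chain of the type I interferon receptor, lay below every shLuc array with shSYK_1. Its log2 intensity there was 6.79 and 6.58 in MOLM-14, against 7.47 to 7.61 with shLuc. In U937 it was 7.68 and 7.68 against 8.25 to 8.37, and in HL-60 6.85 and 6.84 against 7.23 to 7.36. With shSYK_2 it was below shLuc in MOLM-14 (7.42 and 7.32), overlapped it in U937 and was above it in HL-60 (7.81 and 7.87). IRF7, which amplifies interferon production, was −0.01 in the average (adjusted p = 0.923), fell by 0.49 with shSYK_2 in MOLM-14 and rose by 0.30 with shSYK_1 in HL-60. That rise was 0.23 without HL-60 shLuc replicate 2 (adjusted p = 0.106) and 0.29 without HL-60 shSYK_1 replicate 1 (adjusted p = 0.123), and the IRF8 fall in HL-60 was −0.25 without HL-60 shSYK_1 replicate 2 (adjusted p = 0.0516). Of 13 genes of nucleic acid sensing, 5 rose and 1 fell in that average (17.1% and 17.0% of all genes). The adaptor MYD88 (0.36), the RNA receptor TLR8 (0.44) and the kinase TBK1 (0.20) were higher and the adaptor TRAF3 (−0.25) was lower. By line, TLR8 was called in HL-60 alone, at 1.23 with shSYK_1 and 1.08 with shSYK_2. Of 9 genes listed as negative regulators, the phosphatase PTPN2 rose by 0.25 and the conjugating enzyme UBE2N fell by 0.12 in the same average (17.1% and 17.0% of all genes). The fall of UBE2N is not read here as the loss of an inhibitor.

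Members were also set against their promoter windows. Of the 38 measured members with a window, 27 held the response element core, and 11 of these rose and 2 fell in the average over hairpins and lines. Of the 11 without it, 9 rose and 1 fell. For the core of the gamma-activated site the counts were 6 higher and 1 lower of 10 with it, and 14 higher and 2 lower of 28 without it. In the same average 17.1% of all genes rose and 17.0% fell. Of the members with the response element core, IFI27, IFI44, IFI44L, GBP1, LGALS3BP, IFIT1, IFIT3, IFIT5, MX1 and RSAD2 lay in the dimmest 40%. OAS1, without the core, did so too. Of these dim members, IFIT1, IFIT3, IFIT5, MX1, RSAD2 and OAS1 were called in at least 1 of the 6 comparisons. The counts by motif do not take level into account, and a link between motif and response was not tested. Members with the response element core in their window thus included IFI6, ISG15, IFIT1, IFIH1 and BST2, which rose in that average, and IFI27, IFI44, IFI44L and EIF2AK2, which were called in none of the 6 comparisons.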

How the data were processed

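The authors deposited 1 intensity for each probe set on each array, which RMA had produced (background correction, normalization between arrays and summary of probes), per the submitters' processing notes. Version and image analysis: not given in the sources used here. All deposited intensity values, 3.23 to 13024.67, are linear, whereas the planned test assumed log2 values, so log2 was taken first, with no pseudocount. Array medians lay between 18.4 and 20.6. No depth applies to arrays, and the number of arrays limits the precision.

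Of 22277 probe sets, 62 were controls, 19724 had 1 gene symbol, 568 several and 1923 none. Symbols of 19707 were updated by gene ID to RefSeq names (GRCh38.p14) and 17 were kept. Probe sets with 1 symbol gave 12165 genes, each read by its brightest probe set.

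Differences were tested with limma 3.58.1 in R 4.3.3, with 1 mean for each of the 9 groups, 12 residual degrees of freedom, two-sided moderated tests and Benjamini-Hochberg adjustment over all genes, and the script was tested on simulated data. Members and gene lists were chosen with earlier results of these data known. All measured members are named. Values on every array are given for members called alike in at least 5 of the 6 comparisons, the 3 greatest changes of each comparison, the 3 greatest hairpin differences in each direction and the 3 widest shLuc ranges, and also for ISG15, PSMB8, PSMB9 and IRF9. Of other genes, SYK, IRF9, IRF7 and IFNB1 are named, with up to 4 called genes of each pathway list by p in the average. PSMB6, PSMB7, PSME1, PSME2 and IFNAR2 and the markers were named after their values were seen. Same-numbered arrays of a line did not deviate together (18 pairs, r from −0.214 to 0.092), so the main fit has no block. Alternatives were array centring on the median, quantile normalization, the mean of probe sets, leaving out the dimmest 40% of genes, log2 of the value plus 16, another prior, array weights, only the arrays of the lines compared, replicate 1 of HL-60 shSYK_2 counted as shSYK_1, a replicate block and leaving out each array.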

Additional observations from a re-analysis of the deposited data

Results flagged for a closer look

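In 22 cases the mean response of both hairpins differed between lines by the limma test of the difference (adjusted p under 0.05), each given as a log2 difference. The MOLM-14 response exceeded the U937 response for UBE2L6 (1.36), IFITM1 (0.75), RSAD2 (0.72), IFITM3 (0.64), IFITM2 (0.53), PSMB8 (0.38) and PSMB9 (0.38). The MOLM-14 response minus the HL-60 response was 1.03 for UBE2L6, 0.73 for IFIT1, −0.57 for PLSCR1, −0.81 for USP18 and −1.36 for IFI30. The U937 response minus the HL-60 response was 1.00 for IFIT1, −0.31 for SP100, −0.34 for IFITM2, −0.44 for PLSCR1, −0.49 for PSMB9, −0.52 for PSMB8, −0.64 for IFITM1, −1.01 for MX2, −1.13 for IFI30 and −1.21 for USP18. Without 1 U937 shLuc array (replicate 3), SP100 for U937 minus HL-60 was −0.28 (adjusted p = 0.106), and without U937 shLuc replicate 2 PLSCR1 there was −0.36 (adjusted p = 0.0579). IFITM2 there was −0.30 without HL-60 shLuc replicate 1 (adjusted p = 0.0555). These responses average 2 hairpins that moved USP18, RSAD2 and IFI30 to different degrees or in opposite directions within a line.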

How the results depend on the processing

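Of 39900 values of single genes under an alternative, 38180 kept their side of the threshold, 1198 lost a call and 514 gained one. A further 8 changed sign with a call in the main fit or the alternative. Sign changes of values called in neither fit were counted among the 38180. The share of all genes called was taken in the main fit alone. With replicate 1 of HL-60 shSYK_2 counted as shSYK_1, the members called numbered 4 instead of 16 for shSYK_2 in HL-60, 10 instead of 19 for shSYK_2 averaged over lines, 12 instead of 20 for shSYK_2 against shSYK_1 in MOLM-14, 0 instead of 15 for that difference in HL-60, 2 instead of 5 for the response of MOLM-14 minus HL-60 and 6 instead of 10 for that of U937 minus HL-60. With array weights the count was 6 for shSYK_2 in HL-60, 17 instead of 8 for shSYK_2 in U937 and 9 for the hairpin difference in HL-60. With only the arrays of the lines compared it was 10 for shSYK_2 in HL-60 and 9 for the hairpin difference there. With log2 of the value plus 16 it was 13 for shSYK_2 in U937.

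The replicate block was run although the numbers do not pair the arrays. It gave 10 calls for shSYK_2 in HL-60, 4 for shSYK_2 in U937, 1 instead of 7 for the response of MOLM-14 minus U937, 2 for MOLM-14 minus HL-60 and 5 for U937 minus HL-60. All other counts stayed within 1.5 times under the replicate block, with 20 in the average over hairpins and lines. Crossing the HL-60 numbers, chosen after seeing the data, gave 16 for the hairpin difference there.

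Leaving out 1 array moved the count between 15 and 20 for shSYK_1 and 10 and 21 for shSYK_2 in MOLM-14, 13 and 18 and 3 and 10 in U937, and 13 and 18 and 7 and 17 in HL-60. Averaged over lines it lay between 25 and 29 for shSYK_1, 13 and 20 for shSYK_2 and 23 and 28 for both. For both hairpins in 1 line it lay between 13 and 20 in MOLM-14, 9 and 17 in U937 and 15 and 20 in HL-60. For shSYK_2 against shSYK_1 it lay between 13 and 21 in MOLM-14, 12 and 19 in U937, 10 and 16 in HL-60 and 23 and 27 averaged. For the response it lay between 5 and 8 (MOLM-14 minus U937), 3 and 7 (MOLM-14 minus HL-60) and 7 and 14 (U937 minus HL-60). For shLuc cells it lay between 29 and 32, 27 and 31 and 33 and 35 in the same order of lines.

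Among values called in the main fit or the alternative, signs changed for HERC5 (0.0701) and TRIM14 (0.0451) in the HL-60 hairpin difference. They also changed for XAF1 with shSYK_1 in HL-60 (−0.0744), all with the doubtful array placed in shSYK_1. In shLuc cells they changed with the mean of probe sets for PML (−0.20 for MOLM-14 against U937 and 0.0236 for U937 against HL-60). Centring on the median turned PSMB10 (−0.21, MOLM-14 against HL-60), TAP1 (−0.20) and XAF1 (−0.24, both U937 against HL-60). The causes were not tested. With log2 of the value plus 16, which by construction shrinks the changes of dim genes more than those of bright ones, the average over hairpins and lines was 0.31 for OAS1, 0.21 for IFIT1 and 0.29 for MX2, each still called.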
